A study of Mus musculus with 90 samples.

Results

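Lysosomal hydrolases and membrane proteins were followed as a list of 36 genes through the hippocampus and frontal cortex of APP/PS1 mice given an antisense oligonucleotide (ASO) against Cd33. The members are 9 cathepsins, 2 further enzymes (a peptidase and a thioesterase), 8 glycosidases, 7 genes of lysosomal lipid handling and 10 membrane proteins, chosen by name from lysosomal biology, and every probe annotated with a member's symbol was taken. Of these, 33 had a named probe on the array (47 probes), and 32 could be tested among 9741 genes of the series. Cd68, Gla and Npc1 are unnamed here. The probe of Ctsl (cathepsin L) was detected on 0 of 90 arrays. Of the 32 tested members, 31 were detected on all 90 arrays and Ctsd on 88, so the filter on dim probes chose among them only by leaving out Ctsl.

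An ASO is a short synthetic nucleic acid that pairs with a transcript and lowers it, and CD33 is a receptor for sialic acids that inhibits microglia and other myeloid cells. All mice were of the double transgenic APP/PS1 line, which develops amyloid plaques, and were infused through a cannula in the right lateral ventricle from 18 weeks of age with 40 µg of ASO per day in 6 µL per day. The CD33 ASO or a control ASO with no target was given for 28 days, with the pump replaced midway, or for 14 days, after which the pump was taken out. All tissue was collected at 22 weeks, so the 14-day animals had an interval without infusion. The frontal cortex had 14 arrays with the CD33 ASO and 14 with the control ASO at 28 days, and 9 and 9 at 14 days. The hippocampus had 13 and 13 at 28 days, and 9 and 9 at 14 days. All groups carried the transgenes and a cannula, and 0 groups were wild type or uninfused. The promoter of the transgenes is not given in the sources used here.

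Lysosomes are acidic organelles in which proteases, glycosidases and lipases take apart proteins, glycans and lipids that arrive by endocytosis, phagocytosis and autophagy. Their membrane proteins protect the organelle, carry products out and keep its lumen acidic. In the brain every cell type has lysosomes, microglia are rich in cathepsins, and inherited loss of many members of the list causes storage disease of neurons. The transcription factor TFEB and its relatives are known to raise many lysosomal genes by binding near their start a motif built around CACGTG.

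The 250 bases upstream of the transcription start were searched for this motif, since it is the sequence feature that lysosomal genes are best known to share. Of the 32 members with a window in RefSeq (build GRCm38.p6), 11 held CACGTG (34.4%), against 6.86% of 27025 genes. The longer form TCACGTGA stood in 5 members (15.6%, against 0.907% of genes), and the same word flanked by a G before and a C after it in Cln3 alone (3.12%, against 0.27%). Each of these words reads the same on both strands, and the shorter ones lie within the longer. The holders of CACGTG were Cln3, Ctsa, Ctsd, Ctsf, Ctsl, Gaa, Gla, Glb1, Lamp1, Mcoln1 and Naglu. The motif GAGGAAGT of PU.1, a transcription factor of myeloid cells, was searched on both strands after the members' values had been seen, and stood in 2 members, Ctsc and Gla (6.25%, against 2.79% of genes). A match is a description of the letters and not a site of binding. The windows of 3 holders are shown with those of Ctss and Laptm5, which are 2 members of large difference between the tissues and hold 0 copies. Capitals mark CACGTG, the sequences run 5′ to 3′ on the strand of the gene, and each ends at the base before the start.
Lamp1, chr8:13158911-13159160, plus strand: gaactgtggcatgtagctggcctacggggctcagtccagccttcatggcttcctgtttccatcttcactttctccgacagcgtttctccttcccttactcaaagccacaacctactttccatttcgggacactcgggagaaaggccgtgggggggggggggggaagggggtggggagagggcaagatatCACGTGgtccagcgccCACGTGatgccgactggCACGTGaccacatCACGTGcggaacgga
Cln3, chr7:126583237-126583486, minus strand: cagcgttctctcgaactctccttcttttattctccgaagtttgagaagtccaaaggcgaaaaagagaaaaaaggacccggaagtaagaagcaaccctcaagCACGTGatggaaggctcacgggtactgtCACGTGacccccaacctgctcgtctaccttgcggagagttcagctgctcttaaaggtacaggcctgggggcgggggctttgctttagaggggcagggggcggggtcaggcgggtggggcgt
Mcoln1, chr8:3500269-3500518, plus strand: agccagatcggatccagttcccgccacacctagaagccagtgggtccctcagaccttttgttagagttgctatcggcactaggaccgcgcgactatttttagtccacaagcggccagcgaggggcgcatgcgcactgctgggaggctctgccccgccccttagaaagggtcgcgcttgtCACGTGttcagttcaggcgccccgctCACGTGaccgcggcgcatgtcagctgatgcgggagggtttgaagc
Ctss, chr3:95526536-95526785, plus strand: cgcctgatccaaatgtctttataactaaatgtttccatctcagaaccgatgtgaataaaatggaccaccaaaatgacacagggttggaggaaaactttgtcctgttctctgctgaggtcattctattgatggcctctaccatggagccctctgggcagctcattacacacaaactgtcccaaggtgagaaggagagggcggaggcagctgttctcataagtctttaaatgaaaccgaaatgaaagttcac
Laptm5, chr4:130913066-130913315, plus strand: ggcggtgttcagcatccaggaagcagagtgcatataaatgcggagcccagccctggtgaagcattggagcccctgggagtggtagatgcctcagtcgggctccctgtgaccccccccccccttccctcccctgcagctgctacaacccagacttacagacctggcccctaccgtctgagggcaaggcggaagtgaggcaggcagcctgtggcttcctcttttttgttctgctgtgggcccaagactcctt
Lamp1 had 4 copies, beginning 61, 45, 28 and 15 bases before its start. Mcoln1 had 2, at 71 and 45 bases, and Cln3 had 2 in the window shown, 1 of 2 windows listed for that gene.

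The arrays came from 47 animals, 43 of them with both tissues, and lay on 12 chips that each held 1 tissue and all 4 of its groups. An array detected 42.8% to 51.6% of its probes, and the number of arrays limits the precision. The largest cortical component of variance (17.4%) followed the chip (adjusted R2 = 0.877). Cd33, as a check of the labels, was lower with the CD33 ASO at 28 days in both tissues (-0.90 in frontal cortex and -1.46 in hippocampus). Its probe was detected on 10 of 14 cortical and 1 of 13 hippocampal arrays of the CD33 ASO at 28 days, against 14 of 14 and 13 of 13 arrays of the control ASO, so that the hippocampal difference in particular is measured near background. The animal numbered 7, labelled CD33 ASO for 28 days, had Cd33 levels inside the control range in each tissue, as 2 further animals did in the frontal cortex, and its arrays were kept as labelled, with results also computed without it. The dissections carried their own markers: of 8 tested neocortical layer genes 5 were higher in the frontal cortex and 1, Fezf2, was lower, and of 6 hippocampal neuron genes 5 were lower there, such as C1ql2 of the dentate gyrus (-6.07 ± 0.06, SE). Choroid plexus transcripts were present in the hippocampal pieces, with Ttr at -6.68 ± 0.22 in frontal cortex relative to hippocampus.

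Between the tissues most members differed, and most of those were higher in the frontal cortex. In limma's test over all genes (adjusted p under 0.05), 19 of 32 members were higher in frontal cortex than in hippocampus and 3 were lower. Of all genes tested 74.3% differed between the tissues, 34.4% higher and 40% lower, so that the share of members that differed (22 of 32) is near the background, while the members' median was 0.16 on the log2 scale against -0.02 for all genes. With the arrays scaled by their median, 19 members were higher and 7 lower, and of all 9741 genes 2932 were higher and 4370 lower. In bulk tissue, fewer cells of a type and less RNA per cell cannot be told apart. Tissue and chip were separated in the design only by several chips per tissue. With the chip as a random block 18 members were higher and 2 lower, and of all 9741 genes 2998 were higher and 3388 lower.

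**Figure D1:**
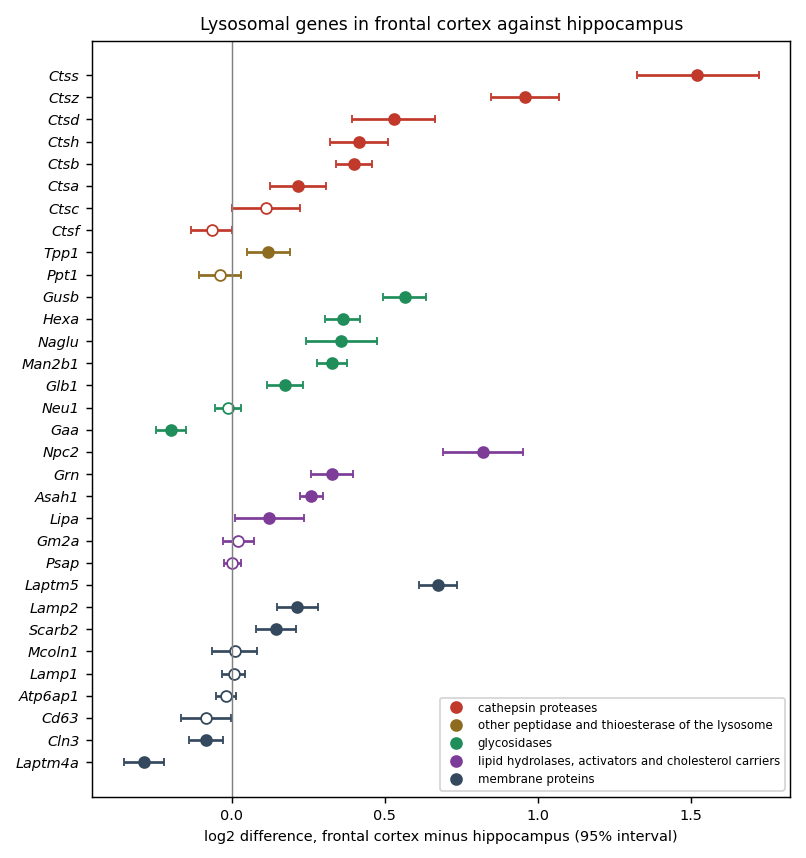
Difference of each of 32 members between the tissues (x axis, log2 of frontal cortex minus hippocampus; y axis, gene), with 95% intervals, coloured by role; filled points passed limma's test at an adjusted p under 0.05 and open points did not. Ctss lies farthest to the right at 1.52, and Laptm4a farthest to the left at -0.29.

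Among the proteases, Ctss, which encodes cathepsin S, a cysteine protease of microglia and other antigen-presenting cells, had the largest difference of the list. Its level (log2 of normalized intensity) had a lowest, median and highest value of 7.91, 9.43 and 10.37 over the 46 cortical arrays, and 7.03, 8.03 and 8.58 over the 44 hippocampal arrays. The frontal cortex was higher by 1.52 ± 0.10 (SE), or 2.87-fold (adjusted p = 7.7e-25), in 43 of 43 animals. Although the array ranges overlapped, the means of the 6 cortical chips (8.78 to 10.14) all lay above those of the 6 hippocampal chips (7.57 to 8.28).

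Ctsz, cathepsin Z (also called X), a carboxypeptidase, had 9.36, 10.19 and 10.82 in frontal cortex, against 8.27, 9.20 and 9.75 in hippocampus, a difference of 0.96 ± 0.06 (adjusted p = 2.7e-28) that was positive in 43 of 43 animals. The aspartic protease Ctsd (0.53), the aminopeptidase Ctsh (0.42), the cysteine protease Ctsb (0.40) and Ctsa, which protects other lysosomal enzymes and is itself a carboxypeptidase (0.22), were higher too. The probe of Ctsd was dim, with a mean level of 6.77. Dimmer probes of Ctsa that passed the filter, detected on 48 and 50 arrays, had 0.098 and -0.090. Ctsc, cathepsin C, which activates serine proteases of immune cells, had a difference of 0.11 ± 0.06 and did not pass (adjusted p = 0.064), and Ctsf had -0.07 ± 0.03 (adjusted p = 0.071). Within the cathepsins the differences thus ran from -0.07 to 1.52. Tpp1, a tripeptidyl peptidase lost in a childhood neuronal ceroid lipofuscinosis, was higher by 0.12 ± 0.04 (adjusted p = 0.0019), while the thioesterase Ppt1, lost in another form of that disease, had -0.04 ± 0.03 (adjusted p = 0.31).

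Of the 7 glycosidases tested, 5 were higher in the frontal cortex and 1 was lower. Gusb, beta-glucuronidase, had 10.14, 10.58 and 10.91 in frontal cortex, against 9.50, 10.03 and 10.47 in hippocampus, and was higher in 43 of 43 animals (0.56 ± 0.04, adjusted p = 2.6e-26). Hexa, the alpha subunit of beta-hexosaminidase (0.36), Naglu, which degrades heparan sulfate (0.36), the alpha-mannosidase Man2b1 (0.33) and the beta-galactosidase Glb1 (0.17) were higher as well. Gaa, the alpha-glucosidase that breaks down glycogen and is deficient in Pompe disease, went the other way. It had 12.02, 12.21 and 12.50 in frontal cortex, against 12.14, 12.42 and 12.72 in hippocampus (-0.20 ± 0.02, adjusted p = 1.3e-11), and was lower in 38 of 43 animals. For the sialidase Neu1 the difference was -0.01 ± 0.02 (adjusted p = 0.63).

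In the group of lipid handling, Npc2, which hands cholesterol from the lumen to the membrane protein NPC1, had the largest difference. Its lowest, median and highest values were 8.45, 9.34 and 10.29 in frontal cortex, against 7.93, 8.57 and 9.10 in hippocampus, and it was higher by 0.82 ± 0.07 (adjusted p = 6.6e-20) in 43 of 43 animals. Grn, the progranulin precursor (0.33), the acid ceramidase Asah1 (0.26) and the acid lipase Lipa (0.12) were higher by less. Psap, the precursor of the saposins that activate sphingolipid hydrolases, differed by 0.00 with a 95% interval of -0.03 to 0.03. Its mean level was 14.74, and many arrays shared the same value after quantile normalization (20 animals higher and 20 lower of 43). The interval of Psap may therefore be too narrow. Gm2a, the activator that presents GM2 ganglioside to hexosaminidase, differed by 0.02 (-0.03 to 0.07). The enzyme subunit Hexa and its activator Gm2a therefore had different contrasts between the tissues, a comparison of their estimates that was not itself tested.

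Membrane proteins were split. Laptm5, a lysosomal protein of haematopoietic cells and microglia, had 12.92, 13.40 and 13.87 in frontal cortex, against 12.25, 12.73 and 13.31 in hippocampus (0.67 ± 0.03, adjusted p = 1.1e-34), and was higher in 43 of 43 animals. Its widely expressed relative Laptm4a had 9.70, 10.18 and 10.47 in frontal cortex, against 10.16, 10.42 and 10.92 in hippocampus (-0.29 ± 0.03, adjusted p = 1.2e-12), and was lower in 40 of 43 animals. The 2 relatives lay on opposite sides of 0. Lamp2, a major glycoprotein of the lysosomal membrane (0.21), and Scarb2, the receptor that carries glucocerebrosidase to the lysosome (0.14), were higher. Cln3, a membrane protein lost in juvenile neuronal ceroid lipofuscinosis, was lower by a small amount (-0.09 ± 0.03, adjusted p = 0.006), which did not hold with the authors' processed values (-0.00, adjusted p = 0.94) or with the chip as a random block (-0.08, adjusted p = 0.05). Lamp1 (0.01), the calcium channel Mcoln1 (0.01), the proton pump accessory protein Atp6ap1 (-0.02) and the tetraspanin Cd63 (-0.08, adjusted p = 0.059) did not pass. The dimmer probes of Cd63 lay on the other side of 0 (0.056 and 0.060).

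**Figure D2:**
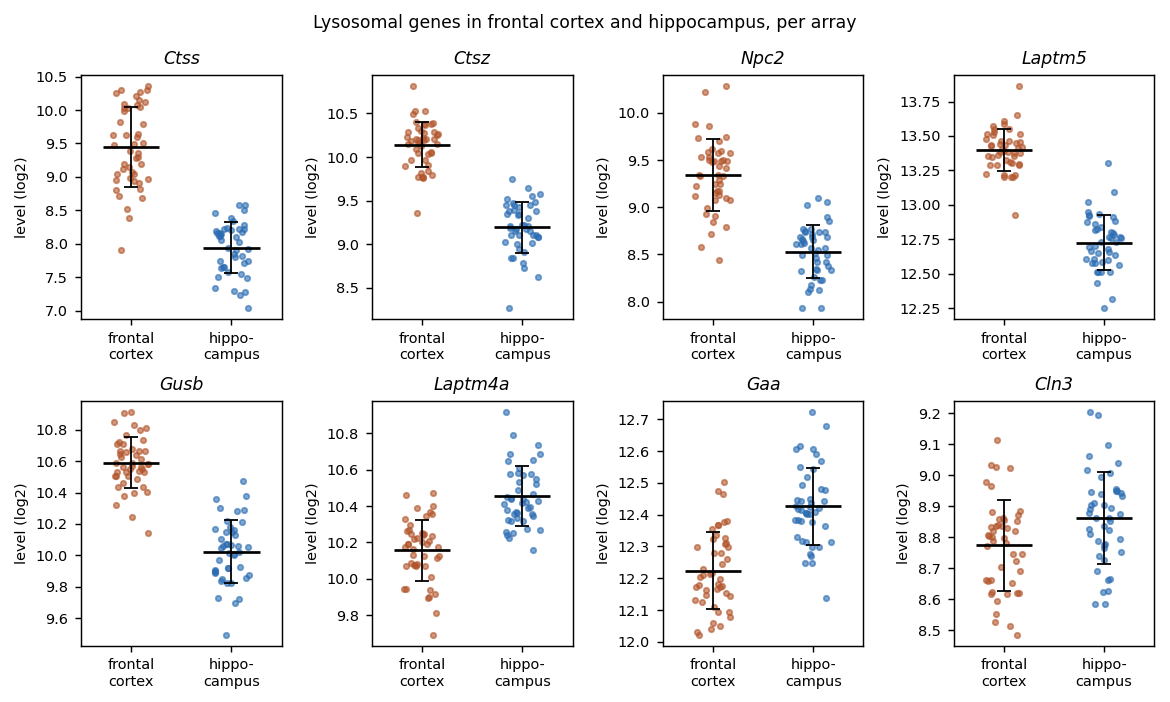
Levels of 8 members on each array (y axis, log2 normalized intensity) in frontal cortex (46 arrays, left) and hippocampus (44 arrays, right), with the mean and SD. The upper row and Gusb are the 5 members of largest positive difference, and Laptm4a, Gaa and Cln3 are the 3 that were lower in frontal cortex; the array ranges overlap in all 8 panels.

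Ranges of single arrays overlapped between the tissues for 32 of 32 members (3.44% of all genes had ranges that did not overlap). By the means of chips, 14 members had all 6 cortical chips above all 6 hippocampal chips (43.8%, against 16.9% of all genes) and 2 members, Laptm4a and Gaa, had all below (6.25%, against 20.6%). All 13 tested microglial markers were higher in frontal cortex, with a median of 0.58 and P2ry12 highest at 1.11 ± 0.09. The list mean on an array lay between 9.79 and 10.54 in the cortical groups and between 9.22 and 10.04 in the hippocampal groups, and all 13 markers were detected on every array. Of 12 plaque-associated genes 7 were higher and 3 lower (median 0.23), of 7 endothelial genes 5 were higher (median 0.16), and 3 of 3 red blood cell genes were higher (median 0.57). Of 8 oligodendrocyte genes 5 were lower (median -0.14), and of 9 astrocyte genes 2 were higher and 6 lower (median -0.10). Of all genes 34.4% were higher and 40% lower. The part of these cell types in the members' differences was not tested.

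Lamp2 was measured by probes of 2 RefSeq transcripts, whose probe means differed. The mean of the 2 probes of the transcript with the brightest probe was higher in frontal cortex in 38 of 43 animals (0.25 ± 0.21, SD). The 2 probes of the other transcript averaged -0.02 ± 0.29 (SD), with 23 of 43 animals higher. These 2 probes lay on opposite sides of 0 (-0.09 and 0.07). Differences between probes and between transcripts cannot be told apart here. The gap between transcripts was 0.28 ± 0.25 (SD) and positive in 37 of 43 animals. The 2-sided permutation p was 1e-05, the smallest that 100000 sign changes can give, in a comparison chosen after the values were seen. Each chip held 1 tissue, so this p does not cover a shift of a probe between chips. The other members with several probes are given by their brightest.

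Beyond the members, the other lysosomal lists were counted in the same way, where of all genes 34.4% were higher in frontal cortex and 40% lower. No list was tested against these shares, and some counts lay near them. Of 19 further hydrolases 9 were higher in frontal cortex and 5 lower (median 0.01), with Ctsk, cathepsin K, at 0.46 ± 0.05 and the arylsulfatase Arsb at -0.21 ± 0.02. Of 21 further membrane proteins and transporters 6 were higher and 7 lower. Slc15a3, a peptide and histidine transporter of immune cells (0.74 ± 0.05), and Slc17a5, the sialic acid exporter (-0.35 ± 0.04), were at the ends. Of 17 subunits of the proton pump 8 were higher and 4 lower, among them Tcirg1 (0.30 ± 0.04). In the sorting list, which holds the mannose 6-phosphate pathway, 4 of 20 were higher and 10 lower, with Lyst (-0.52 ± 0.05) and the mannose 6-phosphate receptor Igf2r (-0.27 ± 0.03) lower. Genes of the TFEB family and lysosomal nutrient signalling were mostly higher, 7 of 10 against 1 lower, led by the GTPase Rragd (0.69 ± 0.03). Of 6 cathepsin inhibitors 3 were higher and 2 lower: Cst7, cystatin F of plaque-associated microglia, had 1.36 ± 0.05 and Serpina3n of astrocytes had -0.90 ± 0.08. Of 14 autophagy genes 4 were higher and 7 lower.

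The question the series was set up to ask is what lowering Cd33 does to microglial gene networks. Ctsc was the member that fell with the CD33 ASO in the frontal cortex at 28 days, and Ctsc and Laptm5 fell there when both durations were averaged, each by under 0.3 on the log2 scale. In the frontal cortex at 28 days 0 of 32 members were higher and 1 was lower, while of all genes 0.154% were higher and 0.318% lower (0.472% called). Averaged over durations in the frontal cortex, 0 members were higher and 2 were lower (0.636% of all genes were called, 0.236% higher and 0.4% lower). At 14 days in the frontal cortex 0 members and 0 genes passed (0%), with 4 members under an unadjusted p of 0.05 (12.5%, against 5.05% of all genes). In the hippocampus 0 members passed at 28 days (0.411% of all genes called, 0.164% higher and 0.246% lower), at 14 days (0.0205% called) or averaged (0.678% called, 0.38% higher and 0.298% lower), with 8, 2 and 5 members under an unadjusted p of 0.05. These are 25% of members at 28 days, 6.25% at 14 days and 15.6% averaged, against 9.33%, 5.92% and 9.32% of all genes.

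**Figure D3:**
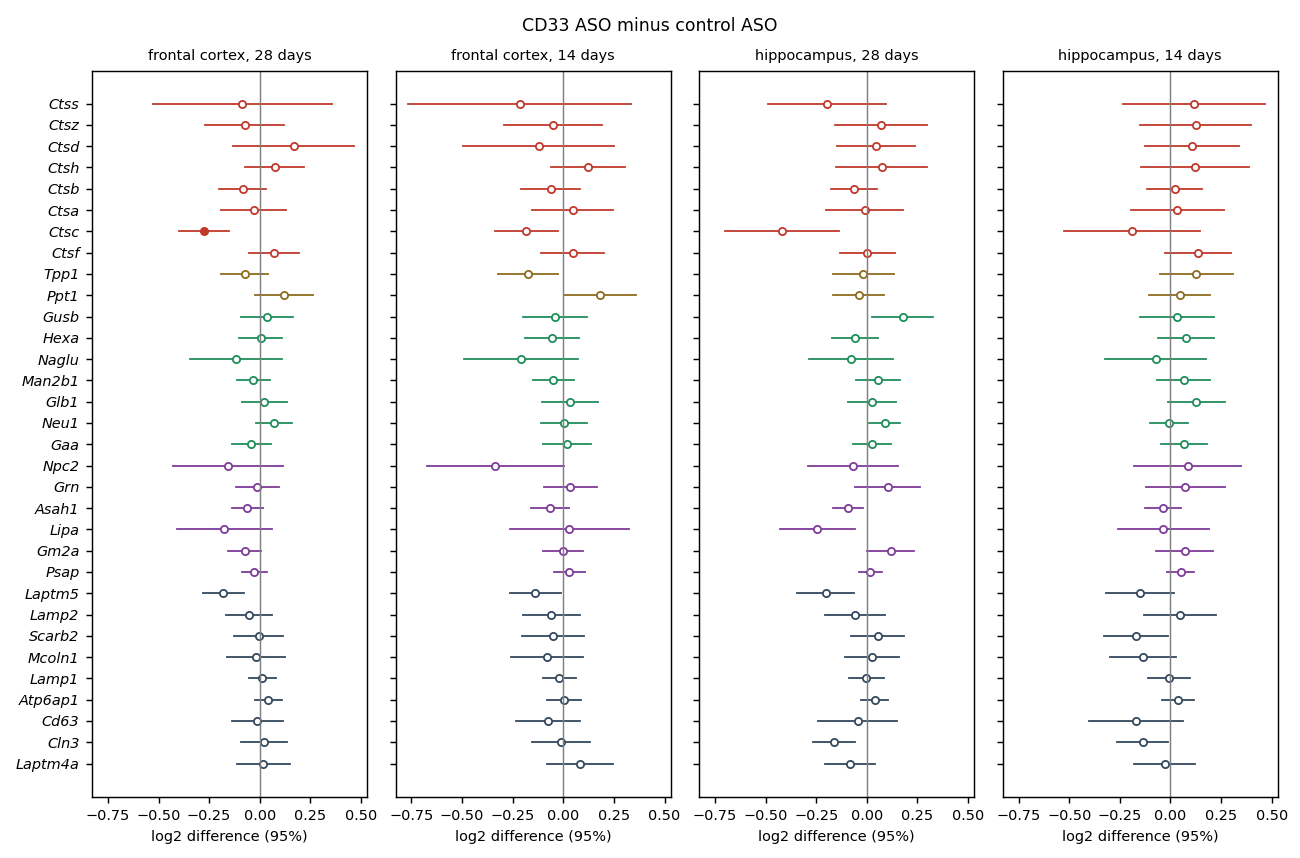
Difference of each of 32 members between the CD33 ASO and the control ASO (x axis, log2, with 95% intervals; y axis, gene) in 4 panels of tissue and duration, coloured by role as in the plot of the tissue differences. Ctsc in the frontal cortex at 28 days (-0.28) is the filled point, which passed limma's test, and intervals of the remaining members mostly span 0.

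Ctsc had lowest, median and highest values of 9.00, 9.48 and 9.74 on the cortical arrays of the CD33 ASO at 28 days, against 9.45, 9.76 and 9.99 with the control ASO. All 14 arrays of the CD33 ASO lay below the control median and 6 of 14 below the lowest control array, and the groups overlapped. The difference was -0.28 ± 0.06 (SE), which is 82.6% of control (adjusted p = 0.014). At 14 days in the frontal cortex the values were 9.32, 9.44 and 9.61 with the CD33 ASO, against 9.42, 9.61 and 10.07 with the control ASO (-0.18 ± 0.08, adjusted p = 0.92). Averaged over durations Ctsc fell by 0.23 on the log2 scale (SE 0.05, adjusted p = 0.0089), and it was lower within 6 of 6 cortical chips (-0.49 to -0.05). Such a count was not particular to Ctsc. Ctsb, Tpp1 and Npc2 were also lower within 6 of 6 cortical chips, and Ppt1 within 0. None of them passed. Npc2 had a larger averaged difference than Ctsc (-0.25), with -0.34 at 14 days, where 9 of 9 arrays lay below the control median. Ppt1 averaged 0.15.

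In the hippocampus at 28 days Ctsc spread more. It had 8.62, 9.25 and 10.25 with the CD33 ASO, against 9.37, 9.66 and 10.15 with the control ASO. Of the 13 arrays of the CD33 ASO, 9 lay below the lowest control array and 2 above the highest. The difference was -0.42 ± 0.14 with a 95% interval of -0.70 to -0.14, which missed the threshold over all genes (adjusted p = 0.24). The 2 high arrays, replicates 2 and 5, had low Cd33 (5.04 and 4.76), and the frontal cortex of the same animals had Ctsc at 9.28 and 9.50. The animal numbered 7, with Cd33 in the control range in both tissues, had Ctsc below the lowest control array in each, at 9.36 in frontal cortex and 8.92 in hippocampus. The 2 further animals with cortical Cd33 in the control range (6.81 and 6.78) had cortical Ctsc at 9.00 and 9.41, also below the lowest control array. All 3 probes of Ctsc had negative differences in all 4 comparisons of ASO (-0.13 to -0.42).

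Laptm5 showed smaller differences with less spread. In the frontal cortex at 28 days it had 12.92, 13.30 and 13.45 with the CD33 ASO, against 13.31, 13.47 and 13.61 with the control ASO, with 14 of 14 arrays below the control median and 7 below the lowest control array (-0.18 ± 0.05, adjusted p = 0.099). At 14 days there the difference was -0.14 ± 0.06. Averaged over durations it fell by 0.16 on the log2 scale (SE 0.04, 89.5% of control, adjusted p = 0.041) and was lower within 6 of 6 cortical chips. That call was lost without the animal numbered 7 (-0.16, adjusted p = 0.053) and with 3 other settings. Hippocampal Laptm5 had 12.25, 12.59 and 12.88 with the CD33 ASO at 28 days, against 12.56, 12.82 and 13.02 with the control ASO, and 6 of 6 hippocampal chips had it lower with the CD33 ASO (averaged over durations, -0.18 ± 0.05, adjusted p = 0.15).

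Cln3 had the smallest p of the members in the hippocampus. At 28 days its values there were 8.59, 8.81 and 8.96 with the CD33 ASO, against 8.78, 8.95 and 9.20 with the control ASO, with 6 of 13 arrays below the lowest control array (-0.16 ± 0.05, adjusted p = 0.22). At 14 days it had 8.58, 8.77 and 9.10 with the CD33 ASO, against 8.78, 8.91 and 9.20 with the control ASO (-0.14 ± 0.06, adjusted p = 0.82). Averaged over durations the difference was -0.15 ± 0.04 (adjusted p = 0.067), negative within 6 of 6 chips. In the frontal cortex it was 0.00 with a 95% interval of -0.09 to 0.10, and the difference between tissues in the ASO effect, 0.16 ± 0.06, did not pass (adjusted p = 0.62).

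**Figure D4:**
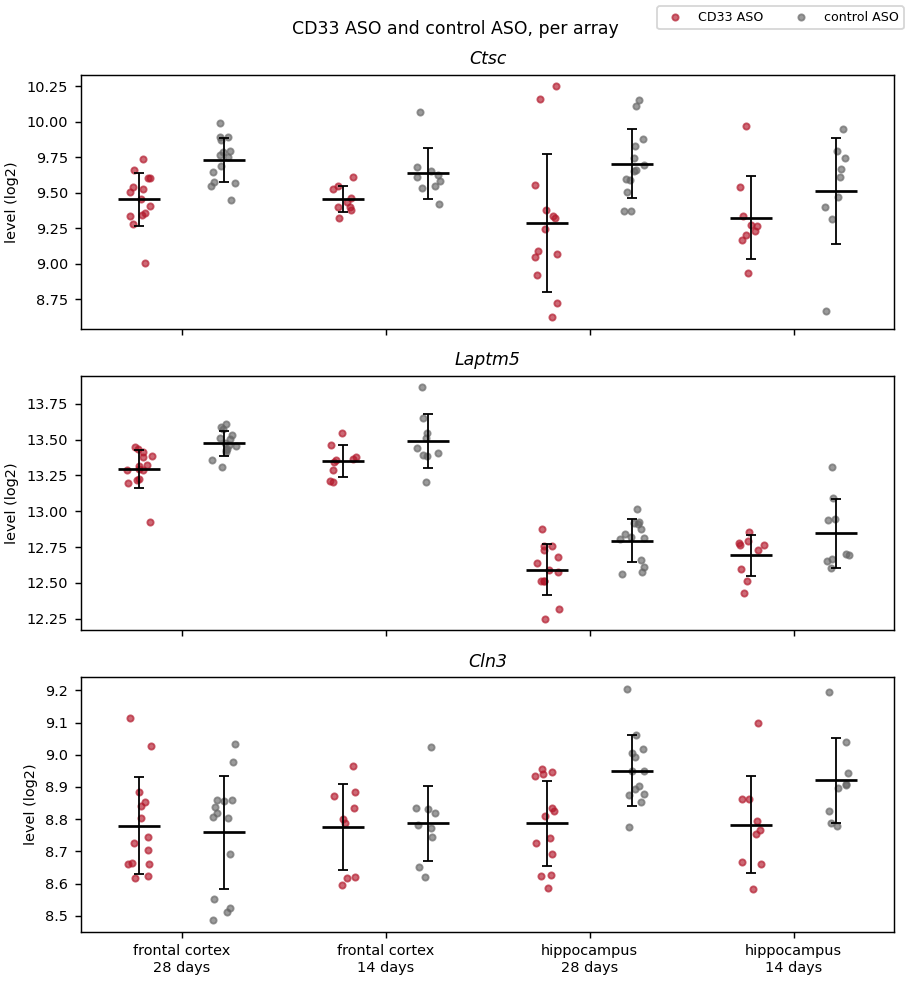
Levels of Ctsc, Laptm5 and Cln3 on each array (y axis, log2 normalized intensity) with the CD33 ASO (red, left of each pair) and the control ASO (grey, right), with the mean and SD, for 14 and 14 arrays in frontal cortex at 28 days, 9 and 9 at 14 days, 13 and 13 in hippocampus at 28 days and 9 and 9 at 14 days. The means of Ctsc and Laptm5 lie lower with the CD33 ASO in all 4 pairs, and those of Cln3 in the hippocampal pairs; 2 hippocampal arrays of the CD33 ASO at 28 days stand above all control arrays for Ctsc.

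The other named members did not pass over all genes. Tpp1 had -0.17 ± 0.07 in the frontal cortex at 14 days (adjusted p = 0.92), with 9.35, 9.43 and 9.91 with the CD33 ASO against 9.43, 9.68 and 9.88 with the control ASO. Gm2a had -0.08 ± 0.04 in the frontal cortex at 28 days (adjusted p = 0.61), with 11.06, 11.19 and 11.39 with the CD33 ASO against 11.17, 11.28 and 11.51 with the control ASO. Its hippocampal value at 28 days was 0.12 ± 0.06, and the difference between tissues did not pass (-0.14 ± 0.05, adjusted p = 0.62). Scarb2 in the hippocampus at 14 days had 7.98, 8.14 and 8.74 with the CD33 ASO, against 8.22, 8.39 and 8.49 with the control ASO (-0.17 ± 0.08, adjusted p = 0.83). At 28 days in the hippocampus Lipa had -0.24 ± 0.09 and Gusb 0.18 ± 0.08 (adjusted p = 0.32 and 0.44), and all 13 arrays of the CD33 ASO had Lipa below the control median. The medians of the 5 role groups in the 4 comparisons of ASO lay between -0.13 and 0.11.

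The precision of these comparisons was such that the median 95% interval of a member reached 0.12 to each side in frontal cortex and 0.14 in hippocampus at 28 days, and 0.15 and 0.16 at 14 days. The members' median difference was -0.02 in frontal cortex and -0.01 in hippocampus at 28 days, and -0.05 and 0.04 at 14 days, against values within 0.01 of 0 for all genes. Of the further lysosomal lists (hydrolases, membrane proteins and transporters, proton pump subunits, sorting, TFEB family and signalling, cathepsin inhibitors, autophagy), 0 members passed limma's test in the 2 comparisons at 28 days or in those averaged over durations. The smallest p among their members in the frontal cortex at 28 days was that of Slc15a3 (-0.23 ± 0.07, unadjusted p = 0.00342, adjusted p = 0.23).

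Markers of other cell types moved with the CD33 ASO. Of 6 tested border macrophage genes, 2 were lower in the frontal cortex and 4 in the hippocampus at 28 days, such as Fcna (-1.12 ± 0.14 and -1.27 ± 0.19) and Ms4a7 (-0.82 ± 0.14 and -1.08 ± 0.21). The mean of that list lay between 5.98 and 6.93 on cortical arrays of the CD33 ASO and between 6.66 and 7.19 on those of the control ASO at 28 days. In the hippocampus it lay between 5.60 and 6.48 with the CD33 ASO and between 6.45 and 7.27 with the control ASO, and 2 to 5 of its 6 genes were detected on an array of the CD33 ASO. Of 12 plaque-associated genes 3 were lower in each tissue at 28 days, Gpnmb, Lgals3 and Lyz2, while over the whole list the median was -0.06 in frontal cortex (2 of 12 above 0) and 0.05 in hippocampus (8 of 12 above 0). The mean of that list lay between 9.57 and 10.18 with the CD33 ASO and between 9.99 and 10.39 with the control ASO in the frontal cortex at 28 days, and between 8.97 and 10.02 with the CD33 ASO and between 9.57 and 10.09 with the control ASO in the hippocampus. Of 7 endothelial genes 1 was lower in the frontal cortex and 2 in the hippocampus, with Vwf at -0.65 ± 0.09 and -0.92 ± 0.17, and of 10 pericyte and fibroblast genes 1, Lum, was lower in the frontal cortex (-0.53 ± 0.12). Averaged over durations, 2 of 8 oligodendrocyte genes were lower in the hippocampus, Mog (-0.41 ± 0.10) and Cldn11 (-0.19 ± 0.04). Of the 13 microglial markers 0 passed in either tissue at 28 days (medians -0.05 in frontal cortex and 0.03 in hippocampus). Of 7 genes of choroid plexus and ependyma 0 passed, with medians of -0.10 in frontal cortex and -0.60 in hippocampus at 28 days, and 0.07 and 0.00 at 14 days. Of 3 red blood cell genes 0 passed, with medians of -0.44 in frontal cortex and -0.82 in hippocampus at 28 days, and 0.34 and 0.32 at 14 days. The part of these cells in the fall of Ctsc and Laptm5 was not tested.

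Between 28 and 14 days 0 members passed in either tissue or ASO. Of all genes 0.0308% were called with the CD33 ASO and 0.0205% with the control ASO in the hippocampus, and 0% with either ASO in the frontal cortex. With the CD33 ASO, 1 member in the frontal cortex and 2 in the hippocampus had an unadjusted p under 0.05, and with the control ASO 0 and 2. These are 3.12% and 6.25% of members with the CD33 ASO, against 5.18% and 9.6% of all genes, and 0% and 6.25% with the control ASO, against 4.57% and 10.9% of all genes. Neu1 with the CD33 ASO had 10.75, 10.91 and 11.05 in the hippocampus at 28 days, against 10.69, 10.77 and 10.99 at 14 days (0.12 ± 0.04, adjusted p = 0.32). Lipa in the same animals had 6.76, 7.08 and 7.25 at 28 days, against 7.03, 7.37 and 7.77 at 14 days (-0.29 ± 0.10, adjusted p = 0.35). Both members had differences of the same sign in the frontal cortex with the CD33 ASO (0.11 ± 0.05 for Neu1 and -0.26 ± 0.13 for Lipa), which comes mostly from the same animals. With the control ASO, Ppt1 (0.16 ± 0.07) and Gaa (0.11 ± 0.05) had the smallest p in the hippocampus, and Hexa (-0.10 ± 0.06) and Grn (0.10 ± 0.06) in the frontal cortex.

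For the difference of the ASO effect between durations, 0 members passed limma's test, with 0% of all genes called in either tissue. Under an unadjusted p of 0.05 were 0 members in the frontal cortex (2.68% of all genes) and 1 in the hippocampus (3.12%, against 4.71% of all genes). Scarb2 and Neu1 had the smallest p in the hippocampus (0.22 ± 0.10 and 0.10 ± 0.06), and Ctsd and Gm2a in the frontal cortex (0.29 ± 0.24 and -0.07 ± 0.06). For the difference of the ASO effect between the tissues, 0 members passed (0.0103% of all genes called), with 5 members under an unadjusted p of 0.05 (15.6%, against 7.19% of all genes).

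Members varied among animals of a group, and this variation was set against that of microglial markers. After group means were removed, each member was correlated with the mean of 13 microglial markers over the arrays of a tissue, 64 relations in all, with permutation p-values adjusted over them by Benjamini-Hochberg. In the frontal cortex 12 of 32 members had a positive Pearson r that passed and 2 a negative one (median r 0.19, n = 46), and in the hippocampus 15 had a positive and 0 a negative one (median r 0.31, n = 44). Of the 9728 genes tested without the markers, members included, 2.32% had an r in the frontal cortex at or above the smallest positive r that passed there (0.423), against 37.5% of members, and 3.56% had one at or below the higher of the 2 negative values (-0.388), against 6.25% of members. In the hippocampus 5.52% of these genes reached the smallest positive r that passed (0.337), against 46.9% of members. The median r over these genes was -0.02 in the frontal cortex and -0.01 in the hippocampus. Arrays of a tissue share chips and RNA quality, so r also contains what these do to all genes.

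Laptm5 had the highest r in the frontal cortex, 0.756 (Spearman 0.686, adjusted permutation p = 0.00021 and 0.00043), and 0.682 without the 2 arrays farthest from the median of the marker mean. In the hippocampus its r was 0.490 (Spearman 0.316, adjusted permutation p = 0.0082 and 0.099), and fell to 0.289 without 2 arrays, so that relation rests in part on those arrays. Ctsz had 0.661 in the frontal cortex (Spearman 0.709) and 0.581 in the hippocampus (Spearman 0.556), with 0.609 and 0.540 without 2 arrays and 0.742 and 0.629 with chip means removed as well. Ctsh led in the hippocampus at 0.660 (Spearman 0.550, adjusted permutation p = 0.00021 and 0.003), followed by Hexa at 0.656 and Man2b1 at 0.627. Ctsc had 0.534 in the frontal cortex and 0.587 in the hippocampus, and 0.493 and 0.617 without 2 arrays.

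Other members had r near 0 or below. Psap had -0.388 in the frontal cortex (Spearman -0.426, adjusted permutation p = 0.028 and 0.013) and 0.131 in the hippocampus. Mcoln1 had -0.412 (Spearman -0.391, adjusted permutation p = 0.014 and 0.024) and -0.058. Without 2 arrays the cortical values were -0.371 and -0.320. Atp6ap1, Neu1, Gaa, Laptm4a and Cln3 had r between -0.222 and 0.101 in both tissues, none of which passed.

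**Figure D5:**
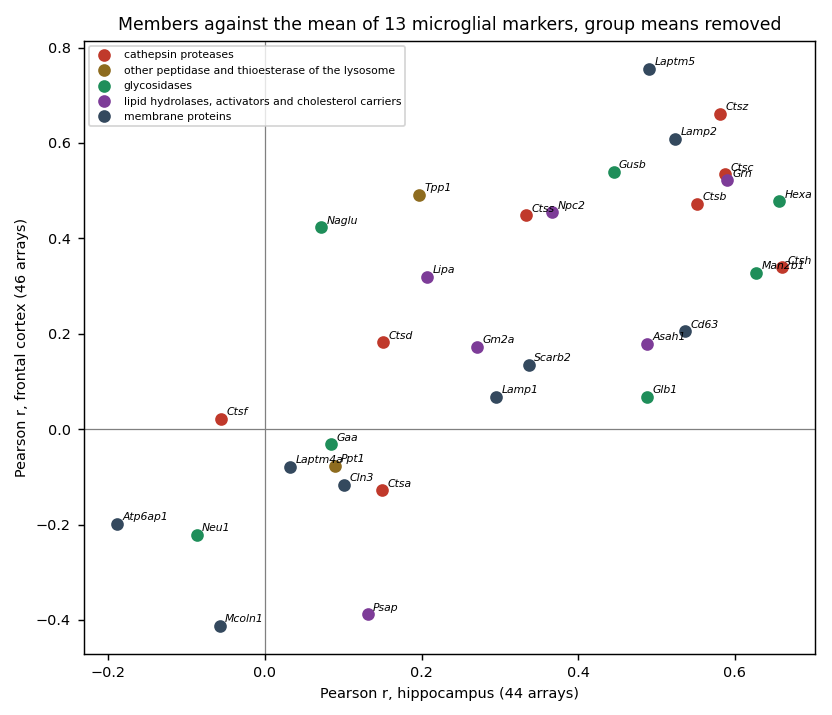
Pearson r of each of 32 members with the mean of 13 microglial markers over arrays, group means removed (x axis, hippocampus, 44 arrays; y axis, frontal cortex, 46 arrays), coloured by role. Laptm5 (0.756 in frontal cortex) and Ctsh (0.660 in hippocampus) lie highest on each axis, and Mcoln1 (-0.412) and Psap (-0.388) lowest in frontal cortex.

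The promoter windows and these values can be set side by side. The 9 tested holders of CACGTG had a median r of 0.02 in the frontal cortex and 0.10 in the hippocampus, against 0.39 and 0.35 for the 20 tested members with a window and no copy. Their median difference between tissues was 0.01, against 0.13. With the longer form TCACGTGA that gap was not seen: the 4 tested holders had a median of 0.11, against 0.12 for the 25 others. The median r of these 4 was -0.12 in the frontal cortex and 0.13 in the hippocampus, against 0.32 and 0.33. Lamp1, Cln3 and Mcoln1, whose windows are printed above with 2 to 4 copies, differed between tissues by 0.01, -0.09 and 0.01, while Ctss and Laptm5, with 0 copies, differed by 1.52 and 0.67. Ctss and Laptm5 were picked for their large difference, and other members went the other way. The holders Ctsd (0.53, from a dim probe) and Naglu (0.36) were higher in frontal cortex, while Psap (0.00) and Laptm4a (-0.29), with 0 copies, were not. These values describe the listed genes and were not tested.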

How the data were processed

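RNA was measured on Illumina mouse bead arrays. The deposited probe table holds signal intensity on a linear scale, before any normalization between arrays, beside the authors' detection p-value of each probe. BeadStudio, GenomeStudio and Partek are named, without versions, per the submitters' processing notes. A second deposited table holds log2 values that the authors had processed in steps not stated in these sources, and served as an alternative only. Probes were named through the platform annotation.

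Background correction and quantile normalization over 90 arrays used neqc (limma 3.58.1 in R 4.3.3) with an offset of 16, which pulls the differences of dim genes toward 0. A probe was kept if its detection p-value was below 0.01 on 9 or more arrays, and the brightest probe stood for a gene. Tests were 2-sided lmFit and eBayes fits of limma with 4 group means per tissue, adjusted by Benjamini-Hochberg over 9741 genes, at 0.05. The tissues were compared with the animal as a random block (consensus correlation 0.128). Correlations used 100000 permutations. The fit within each tissue was tried on simulated data with independent noise and no effect of chip or animal. The fit between the tissues was not tried in that way. Replicates were different animals.

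Members, role groups and other lists were chosen with earlier results of these data known. Values are given in full for members past the threshold in a comparison of ASO, or for 3 members by lowest p if fewer passed, for the 5 largest differences in each direction between tissues, and for the 2 of lowest p in the remaining contrasts. Lipa, Gusb, Npc2, Ppt1 and Ctsb under the ASO, and the animals singled out for Ctsc, were chosen after values were seen. So were the further genes set beside the promoter windows and the PU.1 motif, which was not among the planned motifs. Alternatives were other background, scaling, filter and probe settings, the authors' values, blocks, and 1 animal left out. RefSeq windows for 32 of the 36 members were searched. Those of Asah1, Ctsb, Ctsh and Npc1 were not used here.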

Additional observations from a re-analysis of the deposited data

Results flagged for a closer look

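Levels of 18 members named in the text were screened for single arrays far from the rest in the 4 groups of 9 arrays (72 sets), by Dixon's criterion at 0.493 of the range. This flags about 1 in 20 sets by chance, and 5 were flagged. Ctsc in the control ASO group at 14 days had 10.07 in 1 frontal cortex (replicate 2), where the next array had 9.68, and 8.67 in 1 hippocampus (replicate 5), where the next had 9.32. Ctsz in the control ASO group at 14 days had 8.27 in 1 hippocampus (replicate 3), against 8.92 for the next array. With the CD33 ASO at 14 days, replicate 5 of the hippocampus stood above its group for both Grn (11.77, next 11.45) and Scarb2 (8.74, next 8.30), and the frontal cortex of that animal had 11.81 and 8.50.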

How the results depend on the processing

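The count of members lower in frontal cortex than in hippocampus was 3, and 7 with median scaling, 2 with the authors' values and 2 with the chip as a random block. Under these settings 18 to 24 members were higher. Of all 9741 genes, 3347 were higher and 3894 lower in the main setting, and 2932 and 4370 with median scaling. The chip as a random block gave 2998 and 3388. The authors' values gave 4554 and 2508, so that more genes were higher than lower there (median 0.055 for all genes and 0.233 for members). In the frontal cortex averaged over durations the count was 1 in place of 2 with median scaling (Laptm5, adjusted p = 0.067), with no filter on detection (0.057) and without the animal numbered 7 (0.053). The replicate number as a block, a pairing of arrays by number, also gave 1 (0.057). The numbers were not taken to pair the samples, since same-numbered arrays correlated at -0.253 to 0.428, and the block changed no other call. Ctsc kept its call in the frontal cortex under 9 alternatives (adjusted p 0.0086 to 0.024 at 28 days, 0.0032 to 0.013 averaged). The difference of Cln3 between tissues was lost with the authors' values and with the chip as a random block, and 0 named differences reversed. Called members between the tissues numbered 20 to 26 over the alternatives. The cause of these changes was not tested. Signal near background limits Ctsd, detected on 88 arrays, and Ctsl.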

Other observations

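Some members varied together among animals within groups. In the hippocampus Ctsc correlated with the tetraspanin Cd63 at r = 0.828 (Spearman 0.729) and with Lamp2 at 0.791 (Spearman 0.720), and Ctsh with Grn at 0.820 (Spearman 0.718), each with adjusted permutation p = 0.00043 for r and 0.00066 for rho over 992 pairs in both tissues, and n = 44. Without the 2 most distant arrays these were 0.798, 0.733 and 0.752, and with chip means removed 0.848, 0.831 and 0.812. In the frontal cortex Ctsb and Ctss correlated at 0.781 (Spearman 0.771, n = 46), but at 0.203 once chip means were removed, so that relation did not hold within chips. Of 496 pairs in each tissue, 71 passed with a positive and 27 with a negative r in the frontal cortex, and 95 and 6 in the hippocampus. The share among pairs of all genes was not computed, so these counts have no background. Chip means were not removed for the counts. Once they were removed, Ctsb with Ctsd in the frontal cortex went from 0.560 to 0.021 and Ctsb with Ppt1 from -0.511 to -0.003. Ctsc with Ctsh stayed at 0.638 there. The named pairs were singled out after their values were seen.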
